A study of Mus musculus with 2 samples.

Results

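The 10 genes described here act in iron export, uptake, storage and regulation in macrophages. They were looked up on arrays of mouse peritoneal macrophages treated with or without geranylgeraniol. They are the exporter ferroportin (Slc40a1), the metal transporters Slc11a1 and Slc11a2, the transferrin receptor (Tfrc), the ferritin chains Fth1 and Ftl1, the siderophore binder lipocalin 2 (Lcn2), the iron regulatory proteins Aco1 and Ireb2, and the ferroxidase ceruloplasmin (Cp). Members were all probe sets annotated with exactly 1 of these gene symbols, which gave 28 of the 45101 probe sets on the array, 9 of the 10 genes, and so 9 of 18093 genes with a value. Each of the 3 probe sets that list Ftl1 lists another gene as well, so the ferritin light chain has no value here. The set was picked because Slc40a1 was among the lowest ratios of the same comparison, so its value is given as a description.

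Macrophages take up iron bound to transferrin and from engulfed red cells, keep it in ferritin and release it through ferroportin. Hepcidin, a peptide encoded by Hamp, binds ferroportin and sends it for degradation. When iron is scarce, the iron regulatory proteins bind hairpins in target mRNAs, which holds back translation of ferritin and ferroportin and stabilises the mRNA of the transferrin receptor. During bacterial inflammation macrophages are known to withhold iron, in part through less ferroportin, more ferritin and the release of lipocalin 2.

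The macrophages came from C57BL/6J mice, taken 3 days after thioglycolate, an irritant that draws cells into the peritoneal cavity. Both cultures received LPS, the bacterial lipopolysaccharide that activates TLR4, and an agent the labels abbreviate CPN. Only the LPS+CPN+GGOH culture also received GGOH (geranylgeraniol, an isoprenoid alcohol), and the comparison asks which genes it raised or lowered. There was 1 array per group, so no difference has a test or a replicate error. Doses, times and animal numbers were not given in the sources used here.

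Deposited values are MAS5 signals, background-corrected intensities on a linear scale. A signal was taken as measured above a floor of 59.9, the 50th percentile of both arrays together, and "2-fold" is a log2 ratio of 1 or more in either direction. The log2 ratio is always LPS+CPN+GGOH over LPS+CPN. As a yardstick of error within the arrays, log2 ratios of probe sets of the same gene had a pooled SD of 0.45 over 4166 genes. All 16 macrophage markers were measured on both arrays (median log2 ratio -0.22). They did not move together: their log2 ratios ran from -0.73 to 1.06, and 9 of the 16 lay below 0, beside 51.4% of all genes. Of 14 mesothelial and fibroblast markers, 4 were measured with LPS+CPN and 13 with GGOH, and their summed signal was 1463 and 30101. With GGOH 11 of the 13 were at least 2-fold higher, beside 5.5% of all genes. For 9 of the 13 the ratio was a bound. The count was 5 of 7 once the floor was raised to the 75th percentile. In whole cultures, fewer cells of a type and less RNA per cell cannot be told apart.

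Ferroportin was the 1 iron gene of the 9 that differed by 2-fold or more. It was lower with GGOH, against 1.66% of all 11518 measured genes at least 2-fold lower, and 0 of the 9 were at least 2-fold higher, against 5.5% of all genes. The median log2 ratio of the 9 genes was -0.16 (0.05 with macrophage markers set equal between the arrays), beside -0.01 for all measured genes (0.19 under that scaling), and 7 of the 9 lay below 0, beside 51.4% of all genes. Since the set was chosen on this comparison, nothing is read from these shares. Without ferroportin the log2 ratios ran from -0.47 for Ireb2 to 0.70 for Lcn2.

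**Figure D1:**
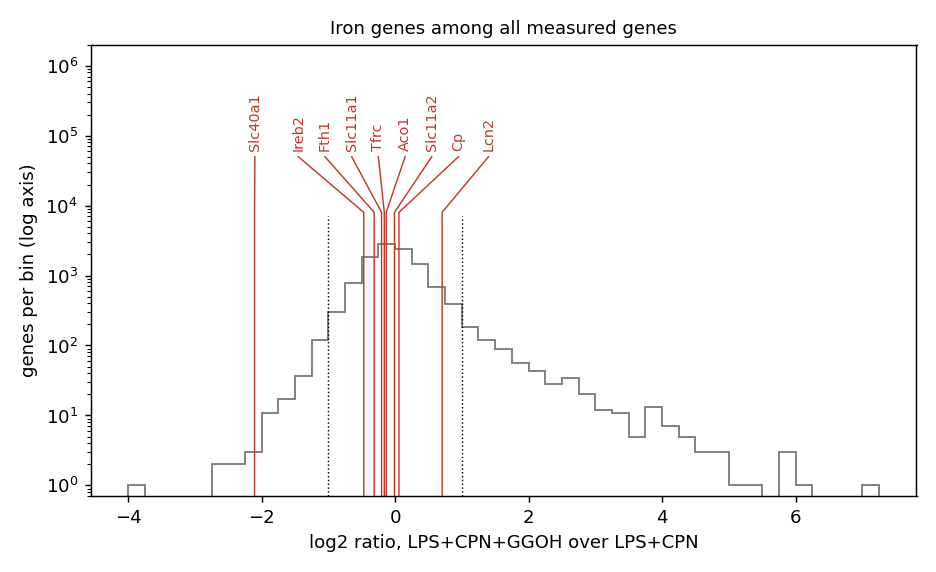
Number of measured genes by log2 ratio of LPS+CPN+GGOH over LPS+CPN (outline, log vertical axis), with a red line for each of the 9 iron genes and dotted lines at 2-fold. Slc40a1 stands at -2.11, outside the 2-fold lines, and the other iron genes lie between -0.47 and 0.70.

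The exporter had the largest difference of the 9 genes. The brighter Slc40a1 probe set gave a signal of 377 with LPS+CPN and 87.6 with GGOH, a log2 ratio of -2.11 or 4.30-fold lower. It ranked 6 from the lowest among the 9909 genes measured on both arrays. The other probe set gave 125 and 64.7, a log2 ratio of -0.95 or 1.93-fold lower. Both probe sets were thus lower with GGOH, but they differed from each other by 1.16 on the log2 scale, an SD of 0.82 against the pooled 0.45. Both GGOH signals lay just above the floor of 59.9. Ferroportin works with a ferroxidase, which oxidises the iron it releases.

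That ferroxidase, ceruloplasmin, is secreted mainly by the liver and is also made by macrophages. The probe set that stands for Cp gave 217 and 225, a log2 ratio of 0.06, well within the pooled SD. The 8 Cp probe sets went different ways. Another one was measured on both arrays at 99.0 and 84.5 (log2 ratio -0.23), and 1 of the cross-hybridizing _x_at class gave 88.7 and 132 (0.57). A further probe set was below the floor with LPS+CPN and read 133 with GGOH, at least 2.22-fold higher, and the last 4 were below the floor on both arrays. Fibroblasts can make ceruloplasmin too, and the part of the higher mesothelial and fibroblast markers in these Cp signals was not tested.

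**Figure D2:**
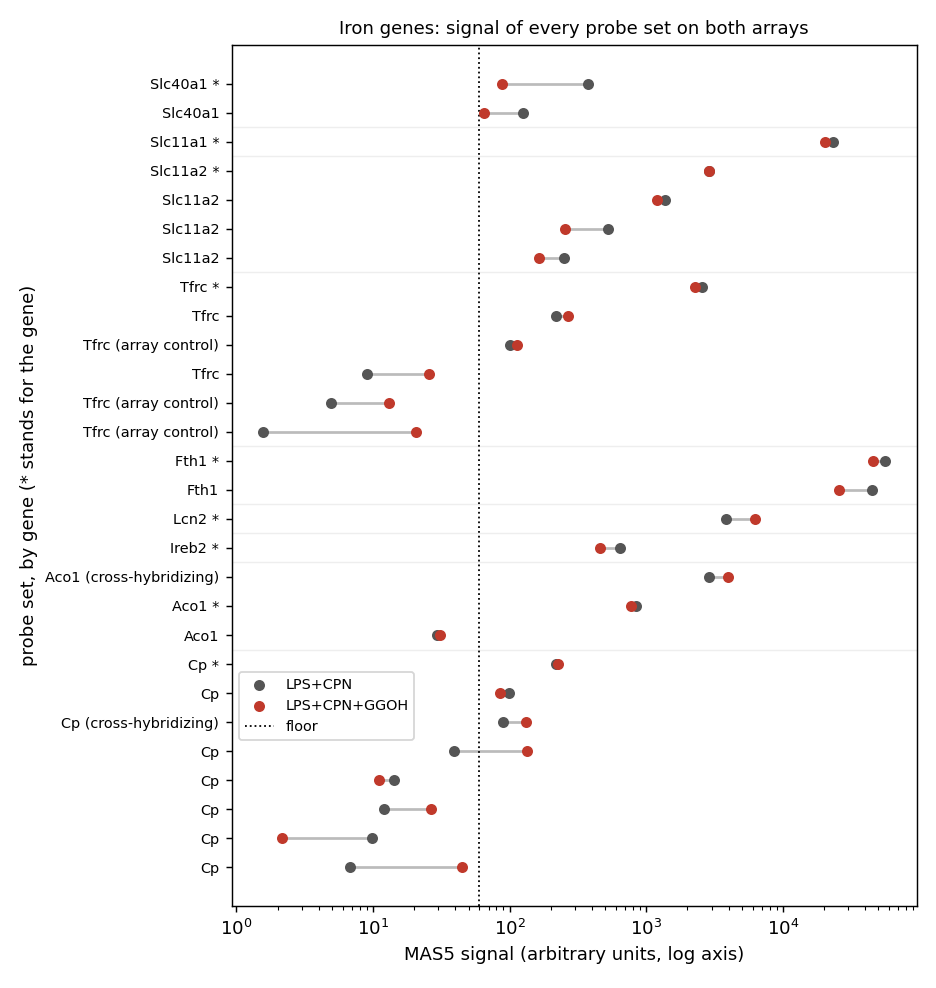
MAS5 signal (log axis) of all 28 iron gene probe sets on the LPS+CPN array (grey) and the LPS+CPN+GGOH array (red), with the floor dotted and an asterisk on the probe set that stands for its gene. Both Slc40a1 probe sets are lower with GGOH, both Fth1 probe sets are lower by less, and the red Lcn2 point lies above the grey one (6219 against 3816).

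Over the 28 probe sets, 20 passed the floor on 1 or both arrays and 8 on neither. Of the 20, 13 had a log2 ratio below 0 and 7 above, beside 47.3% below 0 for all measured probe sets with 1 gene. At 2-fold, 2 were lower (1 of Slc40a1 and 1 of Slc11a2; 1.58% of all measured probe sets were lower) and 1 was higher, the Cp probe set known by a bound (6.29% of all were higher).

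Transcript signals of the metal transporters showed smaller differences in the probe sets that stand for them. Slc11a1 (NRAMP1), which pumps metal ions out of the phagosome of macrophages, gave 23313 and 20263 with its only probe set, a log2 ratio of -0.20. That is within the pooled SD. Slc11a2 (DMT1), which moves ferrous iron out of endosomes, had 4 measured probe sets, all with ratios below 0. The brightest gave 2887 and 2868 (log2 ratio -0.01) and the next 1367 and 1194 (-0.20). The 2 dimmer ones gave 252 and 163 (-0.63) and 523 and 254 (-1.04). The difference in Slc11a2 therefore depended on the probe set, from none to 2.06-fold lower. Slc11a2 is known to be made as several transcript forms, and which form each probe set detects is not given in the annotation.

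Transcript signals of the transferrin receptor differed as little, and uptake itself was not measured. Tfrc gave 2538 with LPS+CPN and 2270 with GGOH in its brightest probe set, a log2 ratio of -0.16, while a dimmer one gave 217 and 266 (0.29). The direction thus differed between the probe sets, which lay 0.46 apart on the log2 scale. Another Tfrc probe set was below the floor on both arrays. The array also carries 3 control probe sets along the Tfrc transcript. The one at its 3′ end gave 101 and 113 (0.16), and those in the middle and at the 5′ end were below the floor on both arrays. Dividing cells are known to raise the transferrin receptor. Of 10 measured proliferation genes, 9 were at least 2-fold higher with GGOH, beside 5.5% of all genes. For 3 of the 10 the ratio was a bound. The count was 1 of 6 once the floor was raised to the 75th percentile. Which cells were dividing, and any link of division to the Tfrc signals, was not tested.

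Storage was represented by the ferritin heavy chain, whose subunit oxidises iron as it enters the ferritin shell. Fth1 gave 56191 and 45241 in the probe set that stands for it, a log2 ratio of -0.31, and 45011 and 25559 in the other, a log2 ratio of -0.82. Both were lower with GGOH as deposited, by 1.24-fold and 1.76-fold. The log2 ratio of the first depended on the scaling. It was -0.10 with macrophage markers set equal and 0 after quantile normalization. The first signal is close to the highest on its array (56591 with LPS+CPN and 47867 with GGOH), where a scanner can flatten differences; that was not tested. RefSeq places 2 starts of Fth1 in GRCm38.p6. The 250 bases before the downstream one are shown, on the plus strand at chr19:9982396-9982645. Fth1 was chosen because it is the storage gene and was lower in both its probe sets as deposited. RefSeq promoters matched 8 of the 10 genes.
Fth1 promoter: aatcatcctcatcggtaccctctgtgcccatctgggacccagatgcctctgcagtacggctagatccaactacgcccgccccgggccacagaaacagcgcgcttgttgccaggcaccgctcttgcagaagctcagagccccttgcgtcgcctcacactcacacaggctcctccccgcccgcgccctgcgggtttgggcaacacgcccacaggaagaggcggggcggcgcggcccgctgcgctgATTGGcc
The capitals mark a CCAAT box, here read on the other strand and starting 7 bases before the start. The window before the upstream start, at chr19:9980350-9980599, holds none of the 6 motifs searched. The letters CCAAT, on either strand, are in 33.8% of 32851 RefSeq promoters of the same length. A match is a description of the letters and not a measured site.

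The iron regulatory proteins, which read the cell's iron level, were both slightly lower in the probe sets that stand for them. Ireb2 (IRP2) gave 639 and 462, a log2 ratio of -0.47, a difference about as large as the pooled SD. Aco1 (IRP1), which is a cytosolic aconitase when it holds an iron-sulfur cluster, gave 840 and 767, a log2 ratio of -0.13. An _x_at probe set of Aco1 went the other way, with 2853 and 3980 (log2 ratio 0.48). Another Aco1 probe set was below the floor on both arrays. The direction for Aco1 therefore depends on which probe set is used.

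Lipocalin 2, which captures bacterial siderophores and so denies them iron, was the member with the highest ratio. Its only probe set gave 3816 with LPS+CPN and 6219 with GGOH, a log2 ratio of 0.70 or 1.63-fold higher, short of 2-fold and above 92.9% of the genes measured on both arrays. Lcn2 is also a neutrophil gene. Of 12 neutrophil markers 6 passed the floor on 1 or both arrays, with a summed signal of 5331 with LPS+CPN and 3984 with GGOH, most of it from S100a8 (4282 and 2216). Of the other measured ones, Mmp9 (log2 ratio 2.82) and Mmp8 (1.12) were at least 2-fold higher and Csf3r gave 748 and 854 (0.19). Ngp and Elane were above the floor with LPS+CPN alone, at 75.4 and 67.7. S100a9, Camp, Mpo and Cxcr2 were below the floor on both arrays, none at a signal of 0, and Ly6g and Retnlg had no value. The part of neutrophil RNA in the Lcn2 signal was not tested. The promoter of Lcn2 is shown because Lcn2 was the member with the highest ratio, and no link of sequence to ratio was tested. This promoter lies on the minus strand at chr2:32387740-32387989 in GRCm38.p6.
Lcn2 promoter: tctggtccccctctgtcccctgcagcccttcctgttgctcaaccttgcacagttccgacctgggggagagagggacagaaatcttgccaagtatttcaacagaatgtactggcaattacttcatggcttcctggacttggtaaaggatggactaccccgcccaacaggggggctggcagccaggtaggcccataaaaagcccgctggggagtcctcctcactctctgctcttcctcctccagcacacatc
None of the 6 motifs searched on both strands is in this window, so it carries no capitals. They were the CCAAT box, the antioxidant response element (TGACNNNGC, in 10.2% of promoters), the kappaB consensus (7.25%), the gamma-activated sequence bound by STAT factors (TTCNNNGAA, 7.02%), the core of the hypoxia response element (ACGTG, 16.6%) and the BMP response element (GGCGCC, 9.59%).

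A wider list of 42 other iron and haem genes was described in the same way, and nothing is read from its counts. Of these, 32 were measured, 1 was at least 2-fold lower (1.66% of all genes) and 0 were at least 2-fold higher (5.5%). Their median log2 ratio was -0.17, with 19 of the 32 below 0, beside 51.4% of all genes. The median turned above 0 with macrophage markers set equal (0.05) and with the median probe set value of each gene (0.03). The count at least 2-fold lower also moved with the setting. It was 2 of 32 with arrays divided by their medians, beside 332 of 11548 for all genes. With the floor at the 25th percentile it was 3 of 38, beside 1127 of 15911. With macrophage markers set equal it was 0 of 32, beside 91 of 11543.

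The gene past 2-fold was Hamp, which encodes hepcidin, the ligand of ferroportin. Its probe set gave 1176 with LPS+CPN and 536 with GGOH, a log2 ratio of -1.13 or 2.19-fold lower (-0.92, short of 2-fold, with the arrays scaled to equal macrophage markers). The transcripts of ferroportin and of the peptide that removes it were thus both lower on the GGOH array. Hamp is best known from hepatocytes and is also made by activated myeloid cells. Its promoter is shown because the pathways known to drive it act through short elements near its start; it lies on the minus strand at chr7:30944030-30944279 in GRCm38.p6.
Hamp promoter: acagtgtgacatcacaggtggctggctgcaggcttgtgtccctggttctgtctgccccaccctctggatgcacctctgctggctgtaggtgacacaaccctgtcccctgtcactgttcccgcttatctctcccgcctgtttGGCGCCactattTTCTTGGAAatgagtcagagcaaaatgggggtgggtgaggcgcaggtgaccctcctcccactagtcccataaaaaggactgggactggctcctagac
The first run of capitals is the BMP response element GGCGCC, which begins 109 bases before the start. The second, beginning 97 bases before the start, matches the gamma-activated sequence. No binding was measured here.

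The next lowest ratios of the list were short of 2-fold. Fbxl5, the ubiquitin ligase subunit that removes IRP2 when iron is plentiful, gave 4630 and 2374, a log2 ratio of -0.96, or -1.13 with each array divided by its median. Slc25a37 (mitoferrin 1), which carries iron into mitochondria, gave 3638 and 2259 (-0.69). Lrp1, the receptor for haem bound to hemopexin, gave 4279 and 2805 (-0.61), though its probe sets ran from -0.61 to 0.11. Hmox1, whose product frees iron from haem, gave 28619 and 20641 (-0.47), a difference about as large as the pooled SD. Transcript signals of the factors that drive and repress Hmox1, ferritin and ferroportin transcription had log2 ratios near 0. The activity of these factors was not measured. NRF2 (Nfe2l2) gave 6082 and 5410 (-0.17), and BACH1 gave 2082 and 1722 (-0.27).

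At the other end, the highest ratios among genes measured on both arrays belonged to Glrx3, a cytosolic iron-sulfur carrier, at 162 and 284 (0.81), and to Epas1 (HIF-2 alpha) at 698 and 1192 (0.77), whose probe sets ran from -0.23 to 0.77. Hfe, which acts in the sensing of transferrin-bound iron, gave 252 and 364 (0.53), and the importer Slc39a14 gave 445 and 599 (0.43). Bmp6, a ligand that drives hepcidin in the liver, was below the floor with LPS+CPN and read 103 with GGOH, a log2 ratio of at least 0.79. Cd163, the haemoglobin scavenger receptor, and the ferroxidase gene Heph were below the floor on both arrays. Erythroid markers gave no sign of red cell precursors above the floor: 1 of 8 was measured, Epor, and that with LPS+CPN alone.

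**Figure D3:**
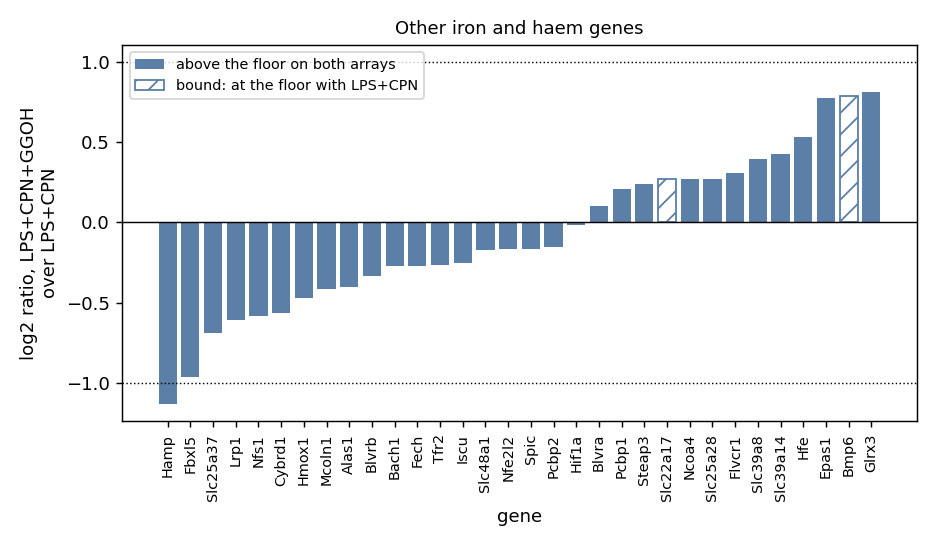
Log2 ratio of LPS+CPN+GGOH over LPS+CPN for the 32 measured genes of the wider iron and haem list, in order; filled bars are genes above the floor on both arrays, hatched bars are bounds, and dotted lines mark 2-fold. Hamp (-1.13 here, -0.92 under equal macrophage markers) is past the lower line and no bar reaches the upper one, with Glrx3 at 0.81 and Bmp6 at a bound of 0.79.

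The genes nearest to ferroportin in the order of log2 ratios over the 2 arrays were Tnf and Ifi47 below it and Abhd18 and Ubd above it. Abhd18 was nearest, at 632 and 147 (-2.11), but its other measured probe set gave 0.22. Ifi47, an interferon-inducible GTPase, differed from ferroportin by -0.07 on the log2 scale, at 8299 and 1835. Ubd, a ubiquitin-like modifier, gave 833 and 209 (3.99-fold lower), and Tnf gave 3621 and 666 (-2.44). With 2 arrays, likeness is nearness in a single ratio and carries no more than that.

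How far these values depend on the scaling of the arrays differed by gene. Ferroportin stayed between -2.30 and -1.89 when each array was divided by its median, quantile normalized, fitted with a lowess or set to equal macrophage markers, and Lcn2 stayed between 0.54 and 0.92. Scaling to equal macrophage markers raised the median of all genes from -0.01 to 0.19, and division by array medians lowered it to -0.17. Under equal macrophage markers Hamp was at -0.92, short of 2-fold, and Slc11a1 (0.01), Slc11a2 (0.21), Tfrc (0.05), Aco1 (0.08) and Nfe2l2 (0.05) turned above 0. Cp turned below 0 with division by medians (-0.11), quantile normalization (-0.16) and lowess (-0.05), and Slc11a2 turned above 0 with quantile normalization (0.02) and lowess (0.04). Taking each gene's median probe set value, Tfrc was at 0.07, Slc11a2 at -0.41 and Fth1 at -0.56. Quantile normalization put Fth1 at 0, since its brightest probe set held the same rank on both arrays. Ferroportin, Lcn2 and Ireb2 (-0.64 to -0.25) were the members that kept their direction under all 9 alternatives. For ferroportin, the value with the floor at the 75th percentile was only a bound of -0.0041.

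**Figure D4:**
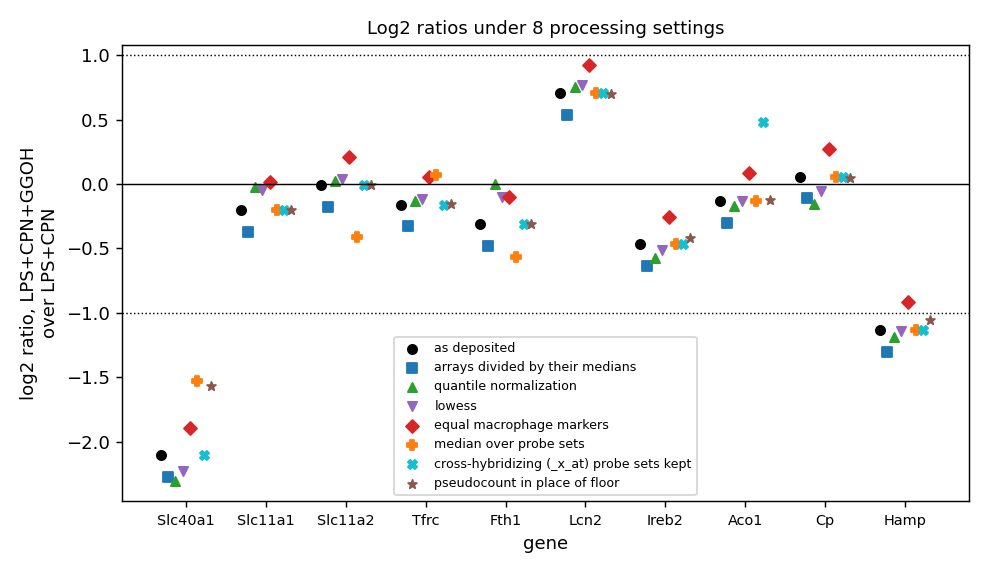
Log2 ratio of LPS+CPN+GGOH over LPS+CPN for the 9 iron genes and Hamp under the main setting (black circles) and 7 alternatives, with dotted lines at 2-fold. Slc40a1 is between -2.30 and -1.53 in all 8, while most other members straddle or touch 0. The settings with the floor moved to the 25th or the 75th percentile are not drawn. With the floor at the 75th percentile Slc40a1 has only a bound of -0.0041.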

How the data were processed

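Signals of 45101 probe sets on 2 arrays, 1 per group, were used as deposited. The submitters' processing notes name MAS5, without a version or a scaling target. Deposited intensity values had a trimmed mean (central 96%) of 500.0 on each array. Probe sets were named from the platform annotation: 34945 had 1 symbol, 932 several and 9160 none, and RefSeq gene identifiers changed 0 symbols. The 64 control probe sets and those of the _x_at class were left out of gene values but shown for members. Each gene was represented by its brightest probe set (by mean log2 signal), signals under the floor were set to it, and such ratios are bounds. Python 3.11.15 was used. The steps were checked on simulated data, with differences planted in genes above the floor on both arrays. The size of the simulated noise was chosen, so the check does not measure the error of these arrays. Members and lists were chosen with earlier results of these data known. The text names all members and the 4 genes nearest to Slc40a1 in log2 ratio. Of the wider list it names those past 2-fold, the 4 highest and 4 lowest measured on both arrays, Nfe2l2, Bach1 and Hmox1. The plan for the marker lists, up to 3 names with the largest ratios, was not followed. All 12 neutrophil markers and the 1 measured erythroid marker are named, and no gene of the other marker lists. Other names were chosen after their values were seen. Alternatives were 4 scalings, the floor moved to the 25th or the 75th percentile, a pseudocount of the floor's size, the median over probe sets, and _x_at probe sets kept. The number of arrays limits the precision.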

Additional observations from a re-analysis of the deposited data

How the results depend on the processing

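No paired analysis was possible because each group has 1 array. The count of iron genes at least 2-fold lower was 1 as deposited and in 8 of 9 alternatives. With the floor at the 75th percentile (a signal of 376) it was 0, because the GGOH signal of Slc40a1 then lies under the floor and its ratio is a bound of -0.0041 on the log2 scale. Slc40a1 was at -1.57 with a pseudocount in place of the floor and at -1.53 as the median over its probe sets, both still past 2-fold. Aco1 moved to 0.48 with _x_at probe sets kept. No iron gene was 2-fold higher under any of the 9 alternatives. The wider iron list had 2 of 32 genes at least 2-fold lower with arrays divided by their medians and 0 of 32 under equal macrophage markers. With the floor at the 25th percentile it had 3 of 38, beside 1127 of 15911 for all genes. Over all genes, 191 were at least 2-fold lower as deposited. The number was 332 with division by medians, 307 after quantile normalization and 91 under equal macrophage markers. Low signals limit Slc40a1, whose GGOH signals both lie near the floor, and Cp, which has no value with the floor at the 75th percentile.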
